A study of Mus musculus with 7 samples.

Results

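The peroxiredoxins and the thioredoxin system were examined in the ileum of mice on a normal or a low cystine diet, through 10 genes (Prdx1 to Prdx6, Txn1, Txn2, Txnrd1 and Srxn1). Each was found by its gene name as 1 of the 38293 rows of the deposited count table. RNA was sequenced from scrapings of the ileum, the end of the small intestine, which contain the epithelium with its lamina propria but no muscle. The mice were male C57BL/6NRJ and individually housed. Their age was given as 8 weeks, and the age at the end of the diets was not stated. All mice received a high fat AIN93G diet low in calcium for 1 week and then, for 2 weeks, either the same diet (normal cys, 0.38% total cystine, n = 4) or a diet in which the added cystine was replaced by alanine (low cys, 0.08% total cystine, n = 3). Each library came from 1 mouse and is named here by its diet and a number given in the order of the sample list. The comparison asks whether cystine restriction changed gene expression in the small intestine.

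Peroxiredoxins remove hydrogen peroxide with a reactive cysteine. The oxidised cysteine of most of them is reduced by thioredoxin, and thioredoxin is in turn reduced by thioredoxin reductase, a selenoprotein that takes its electrons from NADPH. A cysteine that has been oxidised too far can be restored by sulfiredoxin. Several of these genes are known targets of NRF2, a transcription factor that responds to oxidative and electrophilic stress and binds the antioxidant response element. The intestinal epithelium meets oxidants from the diet, the microbiota and its own metabolism.

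The core of the antioxidant response element, TGACNNNGC, was searched on both strands in the RefSeq promoter windows of GRCm38.p6, which run from 250 bases before to 50 bases after a transcription start. Windows were given for 9 of the 10 genes, and 3 of these genes (Srxn1, Prdx1 and Txnrd1) held a match, against 14.0% of the 27025 genes with a window. The stretches that hold the matches are shown because they are the only matches among the 10 genes, and because Srxn1 was 1 of the 2 genes whose libraries separated by diet. They are given 5′ to 3′ on the strand of the gene, with the match, which lies on the opposite strand in each of them, in capitals.
Srxn1: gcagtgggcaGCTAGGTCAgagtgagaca
Prdx1: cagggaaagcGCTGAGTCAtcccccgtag
Txnrd1: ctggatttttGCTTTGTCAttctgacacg
These stretches lie at chr2:152105542-152105570, chr4:116685456-116685484 and chr10:82859104-82859132, on the plus strand. The match began 133 bases before the start in Prdx1, 92 bases before it in Txnrd1 and 28 bases after it in Srxn1. Prdx5, whose libraries also separated by diet, had no match in its window. A match of these letters is not evidence of binding, and binding was not measured.

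The libraries held between 14888760 and 22412703 counts. The counts of the 10 genes ran from 34 (Prdx4) to 16919 (Prdx1) per library, so that counting error was small for all of them except Prdx4. Together they took 0.248% to 0.285% of all counts in the normal cys libraries and 0.252% to 0.259% in the low cys libraries. All 10 were among the 14869 genes that passed the filter on low counts. Epithelial markers were high in all libraries (summed CPM of 9 of 9 enterocyte markers between 19830 and 58768), and those of the distal ileum were present (5 of 5 markers, between 4382 and 9570), while stroma (6 of 6, at most 18.6) and smooth muscle (6 of 6, at most 38.2) were low.

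Levels were compared between genes as CPM per kilobase of exon, with CPM scaled to the TMM-adjusted library size. Txn1, the cytosolic thioredoxin, had the highest level, with 525.6 ± 35.8 (SD, n = 7), and lay above the other 9 genes in every library. Prdx1, an abundant cytosolic peroxiredoxin, followed with 232.6 ± 34.0 (SD, n = 7), and the sulfiredoxin gene Srxn1 had 169.5 ± 28.0 (SD, n = 7). Prdx5 had 104.5 ± 18.8 and Txnrd1, the cytosolic thioredoxin reductase, 83.2 ± 6.34 (SD, n = 7 for each). From Prdx1 to Txnrd1, each gene overlapped with the next in its range over the libraries.

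A second group of genes lay below these. Prdx2, Prdx6 and Prdx3 had 35.7 ± 3.38, 34.3 ± 8.52 and 33.4 ± 3.32 CPM per kilobase (SD, n = 7 for each) and did not differ beyond their spread. The mitochondrial thioredoxin Txn2 had 19.4 ± 2.50 (SD, n = 7), and its range overlapped with that of Prdx6 but not with that of Prdx3. Prdx4, the peroxiredoxin of the endoplasmic reticulum, was lowest with 2.29 ± 0.928 (SD, n = 7). Its level was above that of 34.3% of all genes tested, whereas Txn1 was above 99.2% and Srxn1 above 97.1%. The lengths are those of all annotated exons, which understates genes with long or alternative exons such as Txn2 (4208 bases).

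**Figure D1:**
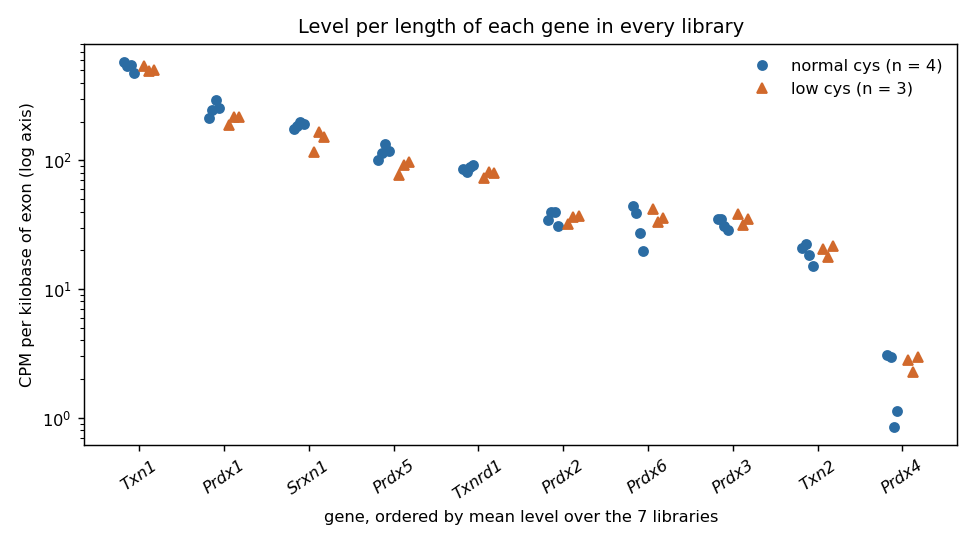
Level of each gene in CPM per kilobase of exon (log axis), with 1 point per library, for normal cys (circles, n = 4) and low cys (triangles, n = 3). Txn1 lies above all others in every library, between 479.5 and 578.1, and Prdx4 lies lowest, between 0.849 and 3.08.

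Prdx5 is a peroxiredoxin found in mitochondria, peroxisomes and the cytosol, and it lies on chr19:6906697-6910106 (GRCm38). It had 214.0, 245.2, 284.9 and 252.8 CPM in normal cys libraries 1 to 4 and 165.1, 196.3 and 206.0 CPM in low cys libraries 1 to 3. All low cys libraries lay below all normal cys libraries, although low cys 3 and normal cys 1 were close. Its log2 fold change, low over normal, was -0.40 (SE 0.145, 95% interval -0.73 to -0.07) in edgeR's quasi-likelihood test, with an unadjusted p of 0.0222 and an adjusted p of 0.794 (Benjamini-Hochberg over all genes tested). The exact permutation test (two-sided, over the 35 ways to assign the diets) gave p = 0.0571, where 0.0286 is the smallest possible.

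Srxn1, on chr2:152105516-152111376, encodes sulfiredoxin, which repairs peroxiredoxins whose cysteine has been oxidised to sulfinic acid. It had 497.9, 525.4, 560.8 and 536.4 CPM in normal cys libraries 1 to 4 and 329.8, 466.5 and 428.5 CPM in low cys libraries 1 to 3. The normal cys libraries were close together and all above the low cys libraries, of which low cys 1 was far below the other 2. For Srxn1 it was -0.38 (SE 0.153, 95% interval -0.72 to -0.03), with an unadjusted p of 0.0355 and an adjusted p of 0.794 in edgeR. The exact permutation test, two-sided, gave p = 0.0286.

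Of the 10 genes, 0 had an adjusted p under 0.05 in edgeR, as was the case for 0% of the 14869 genes tested, and 0 did so with limma-voom or with DESeq2, which passed 0.108% of all genes. At an unadjusted p under 0.05, 2 of the 10 genes passed, Prdx5 and Srxn1, both lower on the low cystine diet, where 2.83% of all genes passed in that direction, 2.66% in the other and 5.49% in either. The same 2 were the only ones of the 10 whose diets did not overlap, against 3.51% of all genes with every low cys library below, 3.32% with every one above and 6.83% in either direction. The count at an unadjusted p under 0.05 rested on single libraries. Without low cys 1, or without normal cys 3, 0 of the 10 genes had an unadjusted p under 0.05, and the share over all genes tested also fell, to 1.71% and 2.73%. Leaving out 1 library at a time, the value of Prdx5 ranged from -0.47 to -0.30 (unadjusted edgeR p from 0.0123 to 0.101) and that of Srxn1 from -0.46 to -0.23 (unadjusted edgeR p from 0.0280 to 0.149). When CPM was scaled to the total library size alone, which moved the median log2 fold change of all genes from 0.01 to 0.15, the values were -0.25 for Prdx5 and -0.24 for Srxn1, and 0 of the 10 genes had an unadjusted p under 0.05, against 6.97% of all genes. In that scaling only Srxn1 kept its diets apart.

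**Figure D2:**
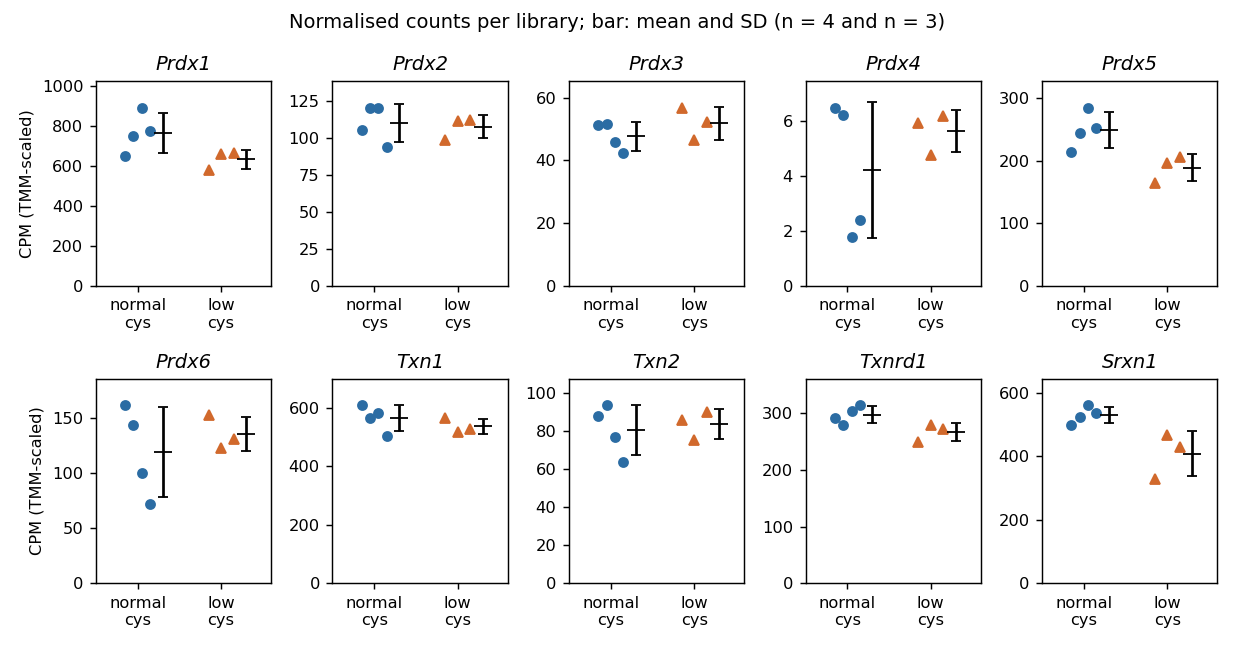
CPM of each gene, scaled to the TMM-adjusted library size, in every normal cys (circles, n = 4) and low cys (triangles, n = 3) library, on axes that start at 0, with the mean and SD as a bar. The diets do not overlap in Prdx5 and Srxn1, and Prdx4 and Prdx6 vary most among the normal cys libraries.

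Prdx1 and Prdx2 are the cytosolic peroxiredoxins that thioredoxin reduces. Prdx1, on chr4:116685544-116700822, had 648.2, 746.2, 889.5 and 774.2 CPM in normal cys libraries 1 to 4 and 577.0, 659.3 and 660.8 CPM in low cys libraries 1 to 3. The diets overlapped, since normal cys 1 lay among the low cys libraries. The log2 fold change of Prdx1 was -0.27 (95% interval -0.62 to 0.07, unadjusted p 0.107 and adjusted p 0.794 in edgeR).

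Prdx2, on chr8:84969587-84974834, had 105.2, 120.3, 120.2 and 93.5 CPM in normal cys libraries 1 to 4 and 98.4, 111.6 and 112.3 CPM in low cys libraries 1 to 3. The low cys values lay within the range of the normal cys values. Its log2 fold change was -0.03 (95% interval -0.33 to 0.27), so that in fold terms the interval ran from 0.795 to 1.20. Prdx2 is also abundant in red blood cells. Of 6 red blood cell markers 5 had counts, with a sum of 10.8 to 21.5 CPM in the normal cys and 14.4 to 18.5 CPM in the low cys libraries, and Slc4a1 was at 0 in every library.

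Prdx3 is the mitochondrial peroxiredoxin that works with Txn2. Prdx3, on chr19:60864051-60874556, had 51.4, 51.5, 45.7 and 42.2 CPM in normal cys libraries 1 to 4 and 56.8, 46.4 and 52.1 CPM in low cys libraries 1 to 3. Low cys 1 was the highest of all, and low cys 3 was also just above every normal cys library. Low cys 2 lay within the range of the normal cys values, so the diets overlapped. For Prdx3 the log2 fold change was 0.12 (95% interval -0.17 to 0.41). Txn2, on chr15:77915047-77929006, had 88.0, 93.4, 77.0 and 63.4 CPM in normal cys libraries 1 to 4 and 85.6, 75.0 and 90.2 CPM in low cys libraries 1 to 3. All low cys values were inside the range of the normal cys values, and the log2 fold change was 0.06 (95% interval -0.29 to 0.40, adjusted p 0.929 in edgeR).

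Prdx4 acts in the endoplasmic reticulum, where it takes part in disulfide formation. It lies on chrX:155323918-155340754. It had 6.48, 6.22, 1.79 and 2.39 CPM in normal cys libraries 1 to 4 and 5.92, 4.75 and 6.19 CPM in low cys libraries 1 to 3. The normal cys libraries fell into a high pair (1 and 2) and a low pair (3 and 4), with the low cys libraries between them. For Prdx4 the log2 fold change was 0.41 (95% interval -0.59 to 1.41, adjusted p 0.832 in edgeR). Prdx4 was the only one of the 10 genes for which a 2-fold difference lay inside the interval.

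Prdx6 reduces peroxides and oxidised phospholipids and draws on glutathione rather than thioredoxin. It lies on chr1:161240112-161251219. It had 161.0, 143.0, 99.8 and 71.9 CPM in normal cys libraries 1 to 4 and 152.5, 122.2 and 130.6 CPM in low cys libraries 1 to 3. As in Prdx4, normal cys 3 and 4 were lowest and the diets overlapped. The log2 fold change of Prdx6 was 0.18 (95% interval -0.39 to 0.76, adjusted p 0.857 in edgeR), and without normal cys 4 it was 0.01.

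Txn1, on chr4:57943373-57956411, had 607.6, 563.1, 582.0 and 504.0 CPM in normal cys libraries 1 to 4 and 566.2, 517.8 and 526.0 CPM in low cys libraries 1 to 3. The low cys values lay inside the normal cys range. For Txn1 the log2 fold change was -0.07 (95% interval -0.37 to 0.22, adjusted p 0.889 in edgeR), and with the total library size alone it was 0.07. Txnrd1, on chr10:82859206-82897724, which reduces Txn1, had 292.4, 278.6, 304.5 and 313.8 CPM in normal cys libraries 1 to 4 and 249.0, 278.9 and 271.6 CPM in low cys libraries 1 to 3. The diets overlapped only in low cys 2 and normal cys 2. The log2 fold change of Txnrd1 was -0.16 (95% interval -0.43 to 0.11, adjusted p 0.798 in edgeR; exact permutation test, two-sided, p = 0.0857).

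**Figure D3:**
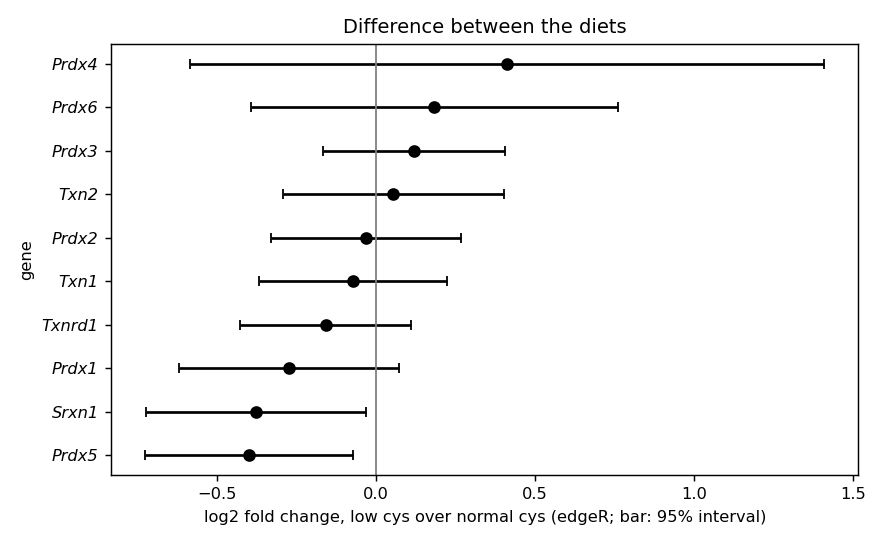
Log2 fold change of each gene, low cys over normal cys, from edgeR, with its 95% interval. The intervals of Prdx5 and Srxn1 lie below 0, before any adjustment for the number of genes tested, and the interval of Prdx4 is the widest, from -0.59 to 1.41.

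Over the 10 genes the estimates were below 0 for 6 and above 0 for 4, with a median log2 fold change of -0.05 against 0.01 for all genes tested. With the total library size alone, the estimates of Prdx2 and Txn1 turned above 0. The adjusted p-values of the 10 genes lay between 0.794 and 0.954 in edgeR. Apart from Prdx4, no bound of an interval was farther from 0 than 0.76 on the log2 scale.

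The genes differed in how far mice on the same diet were apart. The SD of log2 CPM within a diet, pooled over the diets, was 0.08 for Txnrd1 and 0.10 for Txn1, at the 3.43rd and 8.88th percentile of the genes at a similar mean expression. At the other end it was 0.42 for Prdx6 and 0.73 for Prdx4, at the 92.1st and 88.6th percentile. In Srxn1 the normal cys libraries were among the most even (SD 0.07, 4.98th percentile), while the low cys libraries were not (SD 0.26, 78.5th percentile). For 7 of the 10 genes, the pooled SD was below the median of genes at a similar level.

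Markers of the mature and the crypt epithelium moved with some of these genes. The summed CPM of 9 enterocyte markers, none of which was at 0, ran from 36959 to 58768 in the normal cys and from 19830 to 38275 in the low cys libraries, and low cys 1 was lowest. This sum weighs each gene by its CPM, and its members did not all move alike. Fabp2 had 8650 CPM in normal cys 1 and 19584 CPM in normal cys 4. Anpep (12487 and 9968 CPM) and Lct (234.7 and 217.2 CPM) were lower in normal cys 4, and the other members were higher. The summed CPM of 8 markers of proliferating crypt cells, also all detected, ran from 138.2 to 359.3 in the normal cys libraries. In the low cys libraries it ran from 228.7 to 404.2, and normal cys 4 and 3 were lowest of all. The relation of each gene to each of these sums was computed on the log2 scale over the 7 libraries, for 20 relations in all, chosen after the values were seen. An exact permutation test, two-sided, was used with Benjamini-Hochberg adjustment over the 20. Of the 20, 10 had an adjusted p under 0.05 with Pearson's r and 5 with Spearman's rho. The same relations were not computed for the other genes tested. No share over all genes can therefore be set beside these counts, and they do not set the 10 genes apart.

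Prdx5, Txnrd1, Srxn1 and Prdx1 were higher where the enterocyte sum was higher. For Prdx5 Pearson's r was 0.939 (n = 7, exact permutation p = 0.000397, adjusted 0.00794) and Spearman's rho 0.964 (exact permutation p = 0.00278, adjusted 0.0278). Prdx1 had an r of 0.909 (n = 7, exact permutation p = 0.00179, adjusted 0.0119) and a rho of 0.964 (exact permutation p = 0.00278, adjusted 0.0278). Both kept their sign without low cys 1 and normal cys 3, the libraries farthest from the median, with an r of 0.789 for Prdx5 and 0.815 for Prdx1 over 5 libraries. For Srxn1 r was 0.923 (n = 7, exact permutation p = 0.00397, adjusted 0.0159) and rho 0.893 (exact permutation p = 0.0123, adjusted 0.0492), but r fell to 0.591 without these 2 libraries, so that a part of this relation rested on them. In Txnrd1 r was 0.930 (n = 7, exact permutation p = 0.00714, adjusted 0.0238), while rho was 0.679 (exact permutation p = 0.1095, adjusted 0.199), and r was 0.828 without the 2 libraries.

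Prdx3, Prdx6 and Prdx4 were instead higher where the proliferating crypt sum was higher. For Prdx3 r was 0.949 (n = 7, exact permutation p = 0.000794, adjusted 0.00794) and rho 0.893 (exact permutation p = 0.0123, adjusted 0.0492). Prdx6 had an r of 0.920 (n = 7, exact permutation p = 0.00298, adjusted 0.0149) and a rho of 0.929 (exact permutation p = 0.00675, adjusted 0.0450). Prdx4 had an r of 0.900 (n = 7, exact permutation p = 0.0109, adjusted 0.0312) and a rho of 0.714 (exact permutation p = 0.0881, adjusted 0.176). Without normal cys 3 and 4 the r over 5 libraries was 0.885 for Prdx3, 0.686 for Prdx6 and 0.707 for Prdx4. Txn2 followed the crypt sum by r alone, with an r of 0.831 (n = 7, exact permutation p = 0.0183, adjusted 0.0456) and a rho of 0.607 (exact permutation p = 0.167, adjusted 0.238), and r was 0.509 without the 2 libraries. In the opposite direction, Prdx1 (r = -0.827) and Txnrd1 (r = -0.819) were lower where the crypt sum was higher (n = 7, adjusted exact permutation p = 0.0476 for each). By rho neither passed, with -0.857 for Prdx1 (adjusted exact permutation p = 0.0794) and -0.786 for Txnrd1 (adjusted exact permutation p = 0.120). Without normal cys 3 and 4 their r was -0.618 and -0.442, so that a part of these relations rested on the 2 libraries. Txn1 and Prdx2 had r between -0.165 and 0.405 with both sums, and none of these passed. For Prdx2 these values were not stable. Without the 2 libraries farthest from the median of each sum, its r was -0.771 with the enterocyte sum and -0.681 with the crypt sum. These relations pool the diets. With both values centred on the mean of their diet, r kept its sign in 20 of 20 relations, but 0 of 20 had an adjusted p under 0.05 in an exact permutation test within the diets (6 of 20 before adjustment). That test has 144 arrangements and a smallest possible p of 0.00694, which Prdx5 (r = 0.910) and Prdx1 (r = 0.830) reached with the enterocyte sum (n = 7, adjusted exact permutation p = 0.0694 for each). For Srxn1 and the enterocyte sum the centred r was 0.867 (n = 7, exact permutation p = 0.0417, adjusted 0.139), and for Prdx3 and the crypt sum it was 0.937 (n = 7, exact permutation p = 0.0278, adjusted 0.139). Txn1 had a larger r once centred. It was 0.745 with the crypt sum (n = 7, exact permutation p = 0.0764, adjusted 0.139). With the enterocyte sum the centred r of Txn1 was -0.611 (n = 7, exact permutation p = 0.160, adjusted 0.188). Bulk tissue was measured, so fewer cells of a type cannot be told apart from less RNA per cell. The part of the marker sums in the differences of Prdx5 and Srxn1 between the diets was not tested.

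**Figure D4:**
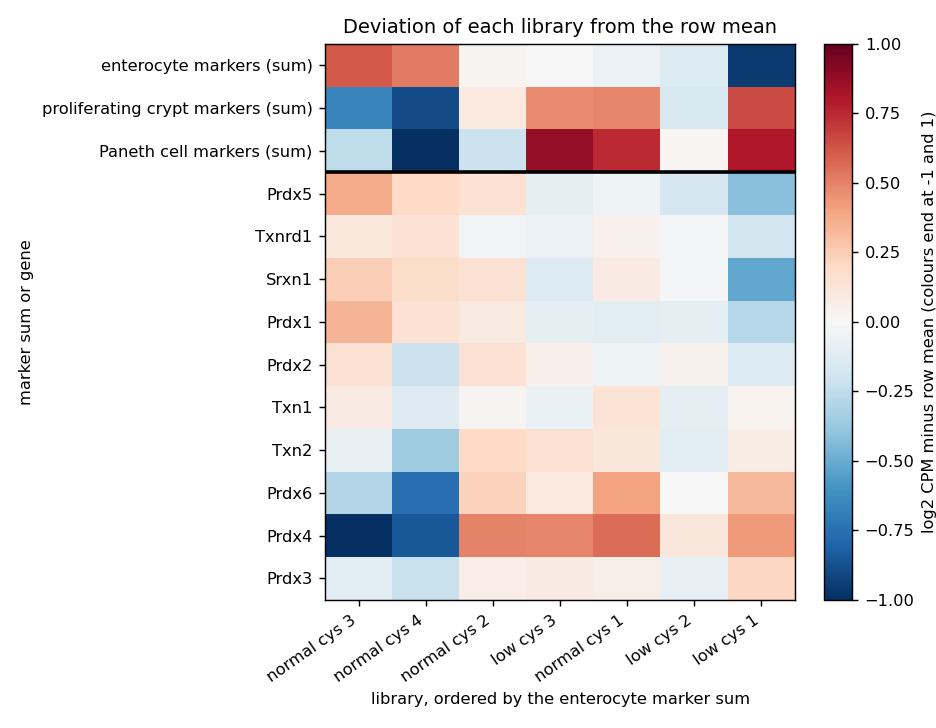
Deviation of each library from the row mean in log2 CPM, for the summed enterocyte, proliferating crypt and Paneth cell markers (top) and the 10 genes (below, in the order of their r with the enterocyte sum), with the libraries in the order of the enterocyte sum. Prdx5, Txnrd1, Srxn1 and Prdx1 fall from left to right, whereas Prdx6, Prdx4 and Prdx3 are low in normal cys 3 and 4, and colours end at -1 and 1.

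For 3 other marker sums, all low cys libraries lay above all normal cys libraries, with no test made. Of all genes tested, 3.32% lay this way. The sum of 7 of 7 B and plasma cell markers was 39.2 to 129.4 CPM in the normal cys and 157.5 to 232.4 CPM in the low cys libraries, and that of 6 of 6 stroma markers was 4.11 to 8.93 and 11.8 to 18.6 CPM. Endothelial markers (5 of 5) summed to 6.45 to 8.46 and 8.96 to 12.7 CPM. Among the single genes of these lists, Jchain, Col3a1 and Dcn had their diets apart, and the others overlapped. The diets overlapped for Paneth cell markers (6 of 6), which summed to between 701.3 and 4642 CPM in the normal cys and between 2810 and 5073 CPM in the low cys libraries. Their part in the values of the 10 genes was not tested.

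Among all genes tested, the 3 whose pattern over the 7 libraries was nearest to that of Prdx5, the gene with the most negative fold change, were Ezr, Dennd3 and Sap30l. The root mean square difference of their centred log2 CPM was 0.05, 0.05 and 0.06. Ezr, which encodes the brush border linker protein ezrin, had 1633, 1791, 1947 and 1836 CPM in normal cys libraries 1 to 4 and 1186, 1464 and 1441 CPM in low cys libraries 1 to 3. The genes nearest to Prdx4, which had the most positive fold change, were 1700022K14Rik, Mgl2 and Adamts15, with differences of 0.15, 0.16 and 0.17. Of these, 1700022K14Rik and Mgl2 were near the floor, with at most 0.735 and 0.784 CPM in any library, so their patterns rest on few counts. Adamts15 had 3.10 to 13.8 CPM.

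The genes around the thioredoxin system were described by lists. Of the relatives and the inhibitor of thioredoxin, 10 of 13 genes were tested, and 0 had an unadjusted p under 0.05 in either direction, with a median log2 fold change of -0.07. Txnip, which binds and inhibits thioredoxin, averaged 511.2 ± 101.8 CPM (SD, n = 4) in normal cys and 484.6 ± 63.0 CPM (SD, n = 3) in low cys libraries, with a log2 fold change of -0.08 (SE 0.188). Txndc17, a small cytosolic relative of thioredoxin, had 271.1 ± 35.8 (SD, n = 4) and 216.7 ± 38.0 CPM (SD, n = 3), a log2 fold change of -0.32 (SE 0.167, adjusted p 0.794 in edgeR). Of the glutaredoxins, sestrins and glutathione reductase, 8 of 8 were tested and 0 had an unadjusted p under 0.05 (median -0.03). Glrx, which removes glutathione from protein thiols, had a log2 fold change of -0.31 (SE 0.179), and Gsr, the glutathione reductase, of -0.09 (SE 0.250).

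Of the enzymes and the kinase listed as partners of thioredoxin, 7 of 8 were tested (median 0.21). With an unadjusted edgeR p under 0.05 there was 1, against 2.83% of all genes lower and 5.49% in either direction. This was Msrb1, a methionine sulfoxide reductase, with 36.9, 43.7, 44.4 and 47.1 CPM in normal cys libraries 1 to 4 and 29.96, 36.6 and 34.8 CPM in low cys libraries 1 to 3. The diets were apart by a narrow margin between normal cys 1 and low cys 2, where 3.51% of all genes had every low cys library below. The log2 fold change of Msrb1 was -0.35 (SE 0.131, adjusted p 0.794 in edgeR). Msra, the other abundant enzyme of this kind, had a log2 fold change of -0.21 (SE 0.145).

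Among targets and regulators of NRF2, 18 of 19 genes were tested, 15 had estimates below 0 and 3 above, and the median log2 fold change was -0.23. The 3 above 0 were Nqo1 (0.04, SE 0.192), Hmox1 (0.41, SE 0.425) and Slc7a11 (0.34, SE 0.519). Hmox1 and Slc7a11 were low, averaging 0.712 and 0.997 CPM. Those below 0 were not targets alone, but included the regulators Nfe2l2 (-0.13), Keap1 (-0.10) and Bach1 (-0.25). NRF2 activity was not measured. Over all genes tested 48.8% of the estimates were below 0 and the median was 0.01. At an unadjusted p under 0.05 there were 2, both lower on the low cystine diet, where 2.83% of all genes passed in that direction, and 0 had an adjusted p under 0.05. The enterocyte marker sum, 36959 to 58768 CPM in the normal cys and 19830 to 38275 CPM in the low cys libraries, was lowest in low cys 1, and its part in these values was not tested. Osgin1, a gene induced by oxidative stress, had 78.0, 66.7, 85.8 and 90.0 CPM in normal cys libraries 1 to 4 and 31.8, 63.9 and 62.2 CPM in low cys libraries 1 to 3. As with Srxn1, the diets did not overlap, as for 3.51% of all genes in that direction, and low cys 1 was far below the rest. The log2 fold change of Osgin1 was -0.61 (SE 0.237, adjusted p 0.794 in edgeR). Me1, the cytosolic malic enzyme that makes NADPH, had a log2 fold change of -1.14 (SE 0.482, adjusted p 0.794 in edgeR) with overlapping diets, since normal cys 1 had 9.98 CPM, less than the 10.5 CPM of low cys 1. The ferritin genes Fth1 and Ftl1, the most abundant of the list, had log2 fold changes of -0.21 (SE 0.161) and -0.36 (SE 0.197).

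Thioredoxin reductases need selenocysteine. Of the genes for the synthesis and insertion of selenocysteine, 7 of 7 were tested, 0 had an unadjusted p under 0.05, and the log2 fold changes lay between -0.13 and 0.16. Sephs2 and Sepsecs, the most abundant of them, had log2 fold changes of -0.13 (SE 0.152) and -0.13 (SE 0.167).

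**Figure D5:**
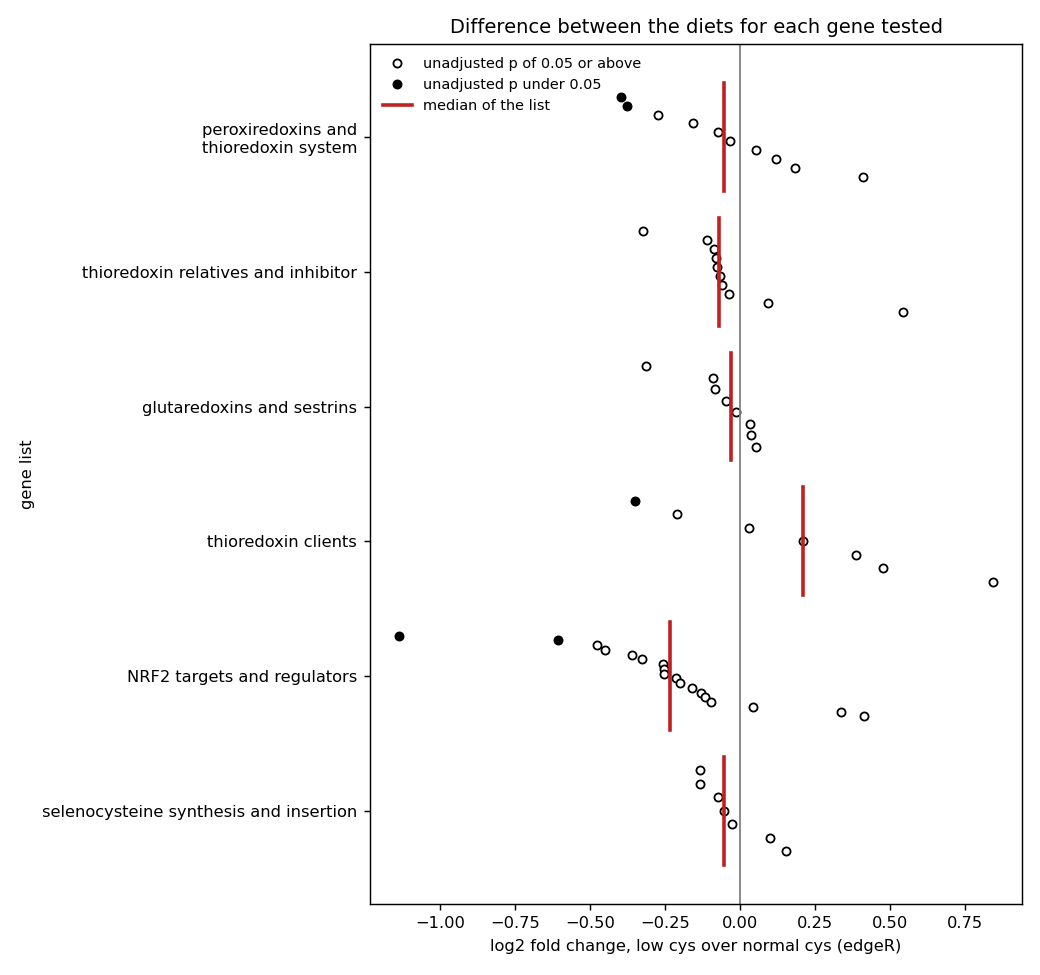
Log2 fold change, low cys over normal cys, of every gene tested in the 6 lists, with filled points for an unadjusted edgeR p under 0.05 and a bar at the median of each list. The filled points, Prdx5 and Srxn1, Msrb1, and Osgin1 and Me1, all lie below 0, and no gene had an adjusted p under 0.05.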

How the data were processed

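Ileal scrapings of 7 mice were used for poly(A) RNA sequencing. The authors trimmed the reads (Trim Galore), removed ribosomal reads (SortMeRNA), aligned the rest to GRCm38 (STAR) and deposited raw counts per gene on Ensembl exons (featureCounts), with the exon length of each gene and without normalization. The strand setting and the treatment of reads with several matches were not given in the sources used here, so reads shared with retrocopies or with overlapping genes can be misplaced. All 7 columns of values were mapped to samples by their titles, and 0 pairs of libraries were identical.

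Genes were kept by filterByExpr of edgeR (version 4.0.16, minimum count 10, minimum total count 15), normalized by TMM and compared by the robust quasi-likelihood test with no covariate in R 4.3.3. Log2 CPM used a prior count of 2, and intervals are 95% intervals from the same fit. DESeq2 1.42.0, voom of limma 3.58.1, other scalings and filters and leaving out each library were the alternatives. Sharing was measured as 50-base stretches of GENCODE M21 transcripts. Proteins were not analysed here.

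The 10 genes, the lists and the tests were chosen with earlier results of these data known. From each list, genes with an unadjusted p under 0.05 or with diets that did not overlap (up to 6) and the 2 genes with the highest mean CPM were named, and the 3 nearest genes of the members with the most positive and most negative fold change. From the NRF2 list, the genes with estimates above 0 and Nfe2l2, Keap1 and Bach1 were named as well. Marker lists are given as summed CPM. Enteroendocrine (152.4 to 184.6 CPM over all libraries), goblet (9810 to 17713), tuft (31.3 to 65.4), stem cell (11.1 to 57.5), T cell (86.6 to 230.1), macrophage and dendritic cell (25.2 to 98.4) and adipocyte (0.669 to 5.10) markers are those not given in the results. The mice were housed individually, their litters were not given in the sources used here, and no sequencing batch was given, so a batch effect was not examined.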

Additional observations from a re-analysis of the deposited data

How the results depend on the processing

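In edgeR 0 genes had an adjusted p under 0.05, against 817 at an unadjusted p under 0.05. With DESeq2 there were 16 (0 of the 10 genes), with limma-voom 0, and with each library left out in turn 0 to 1. The number of the 10 genes with an adjusted p under 0.05 was 0 under all 15 alternatives. The number with an unadjusted p under 0.05 was 2 in the reported analysis, 0 with the total library size alone and 0 to 2 with each library left out, against 5.49%, 6.97% and 1.71% to 11.9% of all genes tested. The number whose diets did not overlap was 2, then 1 with the total library size alone and 2 to 4 with each library left out. Leaving out a library cannot make separated diets overlap, so the leave-out counts could not fall below 2 and do not test stability. The share over all genes was 6.83% in the reported analysis and was not computed for the alternatives. The cause of the changes in these counts was not tested, beyond the smaller groups in the leave-out analyses. With the total library size alone the log2 fold change of Txn1 was 0.07. Prdx5, Srxn1, Prdx1 and Txnrd1 were below 0, and Prdx3, Prdx4 and Prdx6 above 0, in all alternatives run. Prdx2 and Txn2 kept their sign in 11 and 13 of 15 alternatives. Summing Prdx1 with its 2 retrocopies, which was added once the values were known, gave -0.26 (SE 0.158, unadjusted edgeR p 0.133). No paired analysis was possible because the labels give no replicate number that groups share. Centring on the diet means, also added once the values were known, took the 10 of 20 marker relations with an adjusted p under 0.05 to 0. Prdx4 had the lowest counts, with 34 to 145 per library. It also had a wide spread between mice on the same diet (pooled SD 0.73, 88.6th percentile of genes at a similar level). The part of depth in its wide interval was not tested.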

Other observations

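Prdx1 and Prdx2 have processed copies elsewhere in the genome that also received reads. The Prdx1 copy Gm21399 (AC239880.1 in the table), on chr8:129252998-129253597, had 50.7 to 86.2 CPM over the 7 libraries, and the copy Gm7204, on chr16:48218605-48219204, had 35.7 to 58.8 CPM. Their counts were 7.83% to 11.1% and 5.98% to 7.60% of those of Prdx1. Of the 50-base stretches of Prdx1, 5.44% and 4.60% also occur in these copies, and 30.7% and 25.9% of the stretches of the copies occur in Prdx1, so the split of reads between them is uncertain. The Prdx2 copy Tdpx-ps1 (Gm7110 in the table) held 3.36% to 4.19% of the count of Prdx2. Stretches shared with another gene were 2.50% for Txn1, 0.885% for Txn2 and 0.136% for Prdx6, and 0% for Prdx3, Prdx4, Prdx5, Srxn1 and Txnrd1.

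Besides the 10 genes, 18 rows of the table had a name starting with Prdx, Txn or Srxn. Prdx6b, a retrogene of Prdx6, had at most 4 counts in any library, and Prdx6-ps2, Prdx2-rs3 and Txndc8 had 0 in every library. Prdx2 overlaps with Rnaseh2a and Prdx5 with Trmt112 on the opposite strand, and these neighbours had at most 332 and 286 counts in any library, against at least 1743 for Prdx2 and 3141 for Prdx5.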
